A study of Mus musculus with 7 samples.

Results

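Cytosolic ribosomal protein genes were followed across 7 libraries of mouse embryoid bodies, floating clumps in which embryonic stem cells begin to form the germ layers. The members were the features of a single NCBI gene whose mouse symbol is Rpl or Rps with a number and at most an a or x, or is Rplp0, Rplp1, Rplp2, Rpsa or Rps3a1. The rule took 73 genes of 24990 features, 43 of the large ribosomal subunit and 30 of the small one. A RefSeq gene table held 77 symbols of this form, and the other 4 (Rpl26, Rpl30, Rpl34 and Rps27) had only features merged with a second gene, which the rule leaves out. All 73 members passed the filter on low counts, and each reached at least 20 CPM in every library. CPM here are expected counts scaled by library size after TMM adjustment, which sets sizes so that most genes do not differ.

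The cells were R1, a mouse embryonic stem cell line, taken off feeder fibroblasts and grown for 4 days without the cytokine Lif. The study altered Meteor, the locus of a long non-coding RNA, whose part in setting the level of the transcription factor Eomes is the subject of the study. By title, WT1 and WT2 were unmodified cells, pKO1 and pKO2 lacked the Meteor promoter, pInv carried it inverted, Ctrl received an empty vector and KD a CRISPR knockdown of Meteor. The genotype field of the labels goes against the titles of 5 of these 7 libraries: it gives the promoter knockout for WT1 and WT2, the inversion for pKO1, and wild type for pKO2 and pInv. Groups below follow the titles, so every direction drawn from the libraries labelled WT, pKO and pInv rests on that choice. The knockdown is named with Cas9 in the design text and with dCas9, the form that does not cut, in the sample field. Neither the number of clones behind a genotype nor the cultures behind libraries of 1 group are given in the sources used here, so a p-value reflects no more than the spread among these samples, which may be technical.

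A ribosome joins a small subunit, which holds the mRNA and checks codon against tRNA, to a large subunit, which forms the peptide bond and releases the chain through an exit tunnel. Each subunit is built from ribosomal RNA and a fixed set of proteins, most of them present once per ribosome, so their mRNAs are usually made in matched amounts in growing cells such as embryonic stem cells. In vertebrates these mRNAs typically begin with a C followed by a run of pyrimidines at the 5′ end, a feature through which growth signals set their translation, and many of their promoters carry sites for ETS and YY1 factors.

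The starts of 9 members are shown because they are the 5 members whose levels varied most between libraries (Rpl39, Rpl7a, Rps18, Rps23 and Rps28) and 4 of the 5 that varied least (Rpl24, Rpl27a, Rpl5 and Rps13, with Rps20 the fifth). Each line gives 20 bases before and 20 from the annotated start, 5′ to 3′, from RefSeq on GRCm38.p6. Capitals mark the longest run of C or T that overlaps the last 3 bases before the start or the first 3 from it. Runs shorter than 5 bases are not marked.
Rpl39, chrX:37085203-37085242, minus strand: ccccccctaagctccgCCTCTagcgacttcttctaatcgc
Rpl7a, chr2:26910787-26910826, plus strand: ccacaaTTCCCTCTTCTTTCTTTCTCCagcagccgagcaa
Rps18, chr17:33955646-33955685, minus strand: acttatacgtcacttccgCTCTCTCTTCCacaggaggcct
Rps23, chr13:90923102-90923141, plus strand: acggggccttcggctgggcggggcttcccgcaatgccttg
Rps28, chr17:33824543-33824582, minus strand: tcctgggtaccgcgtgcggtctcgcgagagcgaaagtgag
Rpl24, chr16:55966255-55966294, plus strand: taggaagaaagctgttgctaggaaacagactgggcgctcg
Rpl27a, chr7:109519175-109519214, plus strand: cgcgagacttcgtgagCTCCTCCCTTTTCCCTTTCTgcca
Rpl5, chr5:107900508-107900547, plus strand: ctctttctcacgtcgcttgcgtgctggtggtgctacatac
Rps13, chr7:116334171-116334210, minus strand: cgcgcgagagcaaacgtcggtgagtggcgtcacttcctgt
Runs that met this rule stood in Rpl39, Rpl7a and Rps18 among the most variable members and in Rpl27a among the least variable. Both sets thus held promoters with and without one. Rps23 has a run of C and T (cttccc) that begins just past the first 3 bases from the start, so the rule did not count it.

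Over the 54 members with a promoter entry, such a run of at least 5 bases was found in 24 (44.4%), against 24.2% of 27025 genes taken the same way, by the first start listed. A run of at least 8 bases was found in 16 members (29.6%), against 7.35% of genes. Within the 300 bases from 250 before to 50 after the start, on either strand, the ETS core CGGAAG was found in 37 members (68.5%), against 17.2% of genes. The YY1-type motif AAGATGG was found in 7 (13.0%, against 6.48%), the GC box GGGCGG in 33 (61.1%, against 35.9%) and the TATA box TATAAA in 5 (9.26%, against 14.2%). No motif of these contains another, and a match is a description of the sequence, not of binding. Among the 12 members with an entry that were at least 2-fold low in WT2 against the median of the other libraries, 7 had the run of 5, and among the other 42, 17 had it.

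The 73 members took a large part of each library, and the share was highest in the library labelled pInv. They held 12.1% and 9.95% of expected counts in WT1 and WT2, 11.4% and 11.3% in pKO1 and pKO2, 14.2% for pInv, 11.8% for Ctrl and 12.6% for KD. WT2 was the lowest and pInv the highest, with 95% Wilson intervals of 9.904% to 9.989% and 14.19% to 14.28%, which cover counting error only. The mean share was 11.0% ± 1.55 (SD, n = 2) in WT and 11.4% ± 0.0401 (SD, n = 2) in pKO. The total behind these shares includes the most abundant feature of every library, NCBI gene 100861531, for which the reference tables give no name. That feature was lowest in pInv (12.9% of counts) and highest in WT2 (24.1%), the reverse of the members. The reverse order did not hold throughout: the feature took 22.5% in Ctrl and 19.1% in pKO2, where the members held 11.8% and 11.3%. With that feature left out of the total, the members' share ran from 13.1% in WT2 to 16.3% in pInv, so WT2 remained the lowest and pInv the highest. By CPM after TMM adjustment, the scale of every level below, the members summed to 135883 in pInv, and the lowest was pKO2 (111186), with WT2 next (112816) and the other 4 libraries at 115224 to 120859.

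**Figure D1:**
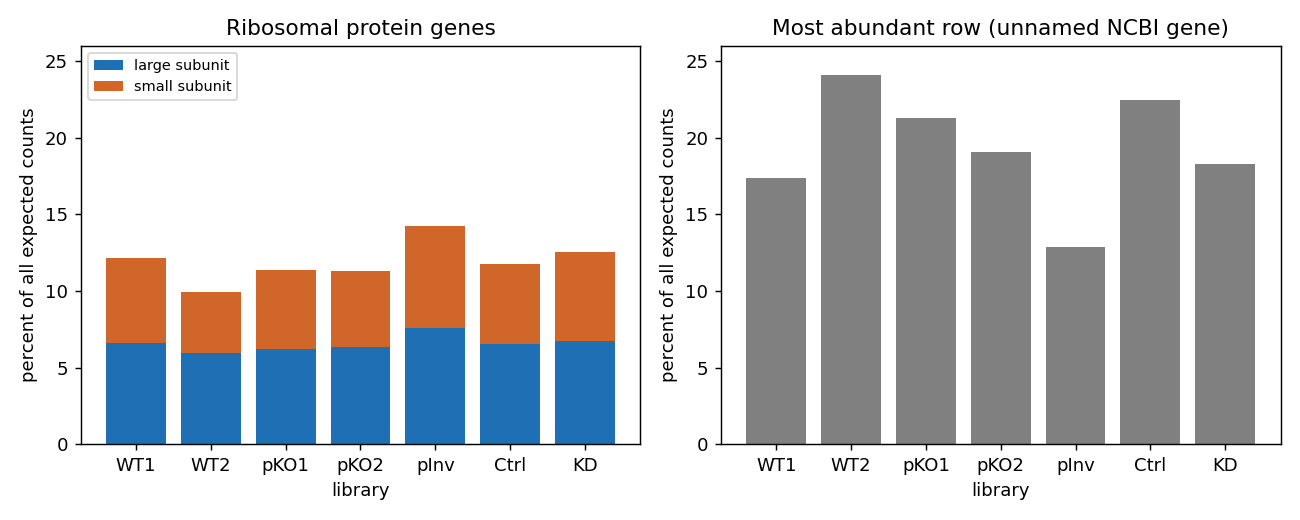
Percent of all expected counts per library (vertical axes) held by the 43 large-subunit and 30 small-subunit genes, stacked on the left, and by the most abundant feature, NCBI gene 100861531, on the right. The ribosomal protein share is lowest in WT2 (9.95%) and highest in pInv (14.2%), while the single feature on the right is highest in WT2 (24.1%) and lowest in pInv (12.9%).

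The balance between the subunits also differed between libraries. The counts of large-subunit genes were 1.19 and 1.48 times those of small-subunit genes in WT1 and WT2, 1.21 and 1.29 times in pKO1 and pKO2, 1.14 for pInv, 1.26 for Ctrl and 1.16 for KD. WT2 stood highest: its small-subunit share was 4.01% of counts, where the highest library, pInv, had 6.65%, while the large-subunit share spanned only 5.94% in WT2 to 7.58% in pInv. In bulk RNA, fewer cells of a type and less RNA per cell cannot be told apart, and this holds for every level given here.

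Member levels spanned 73.9-fold, from a mean of 99.7 CPM for Rps15a to 7363 for Rplp1, with a median of 1251 CPM where all 10265 genes tested had 16.8. The kit reads a transcript once, near its 3′ end, so CPM are not divided by length. The order from the top was Rplp1 (mean over 7 libraries 7363 CPM), a stalk protein that recruits elongation factors, Rps12 (7231), Rps14 (5666), Rps27a (3810), made as a fusion with ubiquitin, and Rpl23 (3703). Rplp1 ran from 6546 CPM in WT1 to 8887 in pInv and Rps12 from 4876 in WT2 to 10483 in pInv, so these neighbours in the order overlapped. Rps14, which lies at the mRNA exit, ran from 4673 CPM in pKO1 to 7081 in pInv and overlapped both, while Rps27a (2969 to 4589 CPM) and Rpl23 (3319 to 4577) overlapped each other and lay below all values of Rps14. The 5 lowest means were Rps15a (99.7 CPM), Rpl7a (109), Rps28 (134), Rpl9 (311) and Rps9 (332). For Rps15a, Rpl7a, Rps28 and Rpl9 the counts held fractions in all 7 libraries, as for 37 of 73 members, and for Rps9 in 2. Fractions arise where reads fit several genes, and their part in these levels was not tested.

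**Figure D2:**
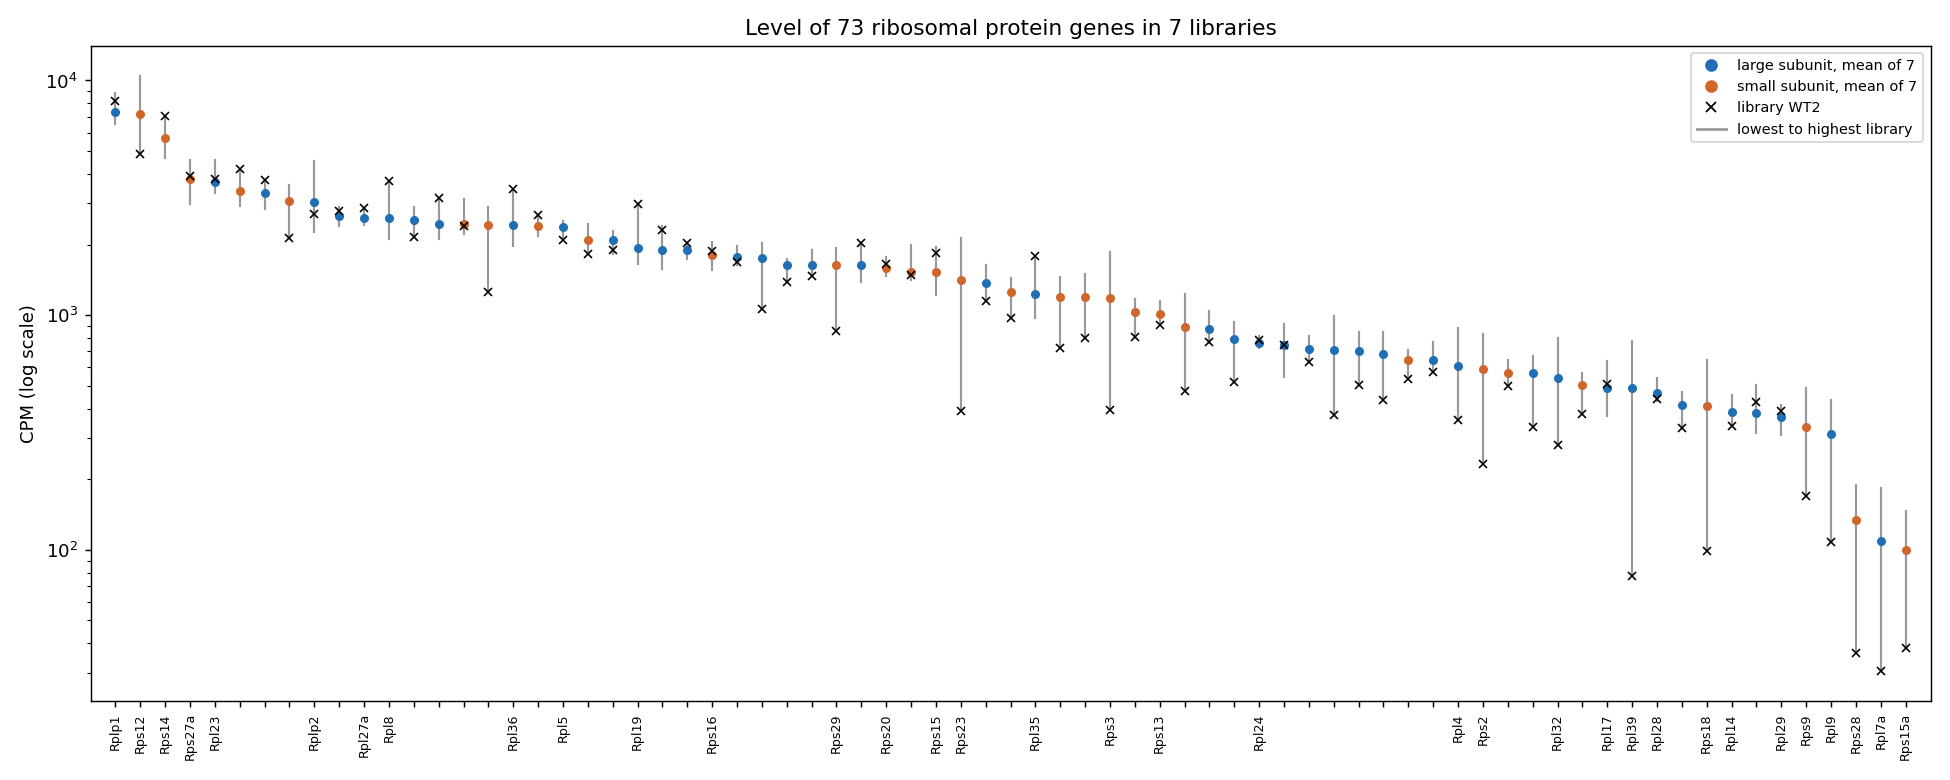
Level in CPM (log scale) of each of the 73 genes, ordered by mean; circles are means of 7 libraries, coloured by subunit, vertical lines join the lowest and the highest library and crosses mark WT2, with names on the axis for the genes chosen by level, spread or difference. Means run from 7363 CPM for Rplp1 to 99.7 for Rps15a, and for many genes on the right the cross sits at the foot of the line.

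The deposited TPM give another order, because they divide by a transcript length that the files set. For 64 members with a GENCODE transcript length, the length in the files was 1900 to 2200 bases longer in 40, 200 to 1900 longer in 14, over 2200 longer in 1 and within 200 bases in 9. Mean CPM and mean TPM had a Spearman correlation of 0.862 across the 73 genes, which share libraries. Rpl41, whose file length was the shortest at 449 bases, had a mean of 25682 TPM, the highest, and 2455 CPM. Rps15a, with the longest file length at 7134 bases, was lowest on both scales, at 55.0 TPM. Of the 5 highest members by CPM, 4 were also among the 5 highest by TPM. Levels are therefore compared between genes only as CPM of 3′ reads, and between libraries gene by gene.

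Members differed in how far they varied between libraries. The SD of log2 CPM over the 7 libraries had a median of 0.20 for the members and 0.28 for the 4664 genes whose mean reached 20 CPM, and 33 members were under 0.2. The steadiest were Rpl24 (725 to 815 CPM, SD of log2 0.06), Rpl27a (2430 to 2848, 0.08), Rpl5 (2089 to 2506, 0.09), Rps20 (1465 to 1774, 0.10) and Rps13 (911 to 1144, 0.10). Rpl5 binds the 5S ribosomal RNA together with Rpl11. Rpl11 was less steady, with 1066 CPM in WT2, 1416 in pKO2 and 1855 to 2029 elsewhere.

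At the other end, 11 members had an SD of log2 CPM of 0.5 or more, and 2 libraries set it. Rpl39, a short protein of the exit tunnel wall, had 577 and 77.7 CPM in WT1 and WT2, 677 and 161 in pKO1 and pKO2, 573 for pInv, 594 for Ctrl and 777 for KD. WT2 was 7.54-fold and pKO2 3.65-fold below the median of the other 6 libraries, and the other 5 libraries lay close together. Rps23, at the decoding centre, had 1668, 390, 1763, 733, 2132, 1280 and 1949 CPM in the same order, with the same pair of libraries lowest. Rps18, in the head of the small subunit, had 498, 98.6, 504, 288, 499, 343 and 642 CPM. Here WT2 was 5.05-fold below the median of the others, and pKO2 and Ctrl were next. Rpl7a had 126, 30.5, 146, 51.9, 117, 106 and 184 CPM, again with WT2 and pKO2 lowest. Rps28, which contacts the mRNA as it leaves, had 151, 36.4, 188, 118, 133, 133 and 177 CPM, so that WT2 stood apart and pKO2 was near pInv and Ctrl. Without WT2, 5 members had an SD of 0.5 or more, and without WT2 and pKO2 none of the 73, with Rps3 the highest at 0.40. The median SD over the remaining 5 libraries was 0.14 for the members and 0.21 for the 4664 genes.

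**Figure D3:**
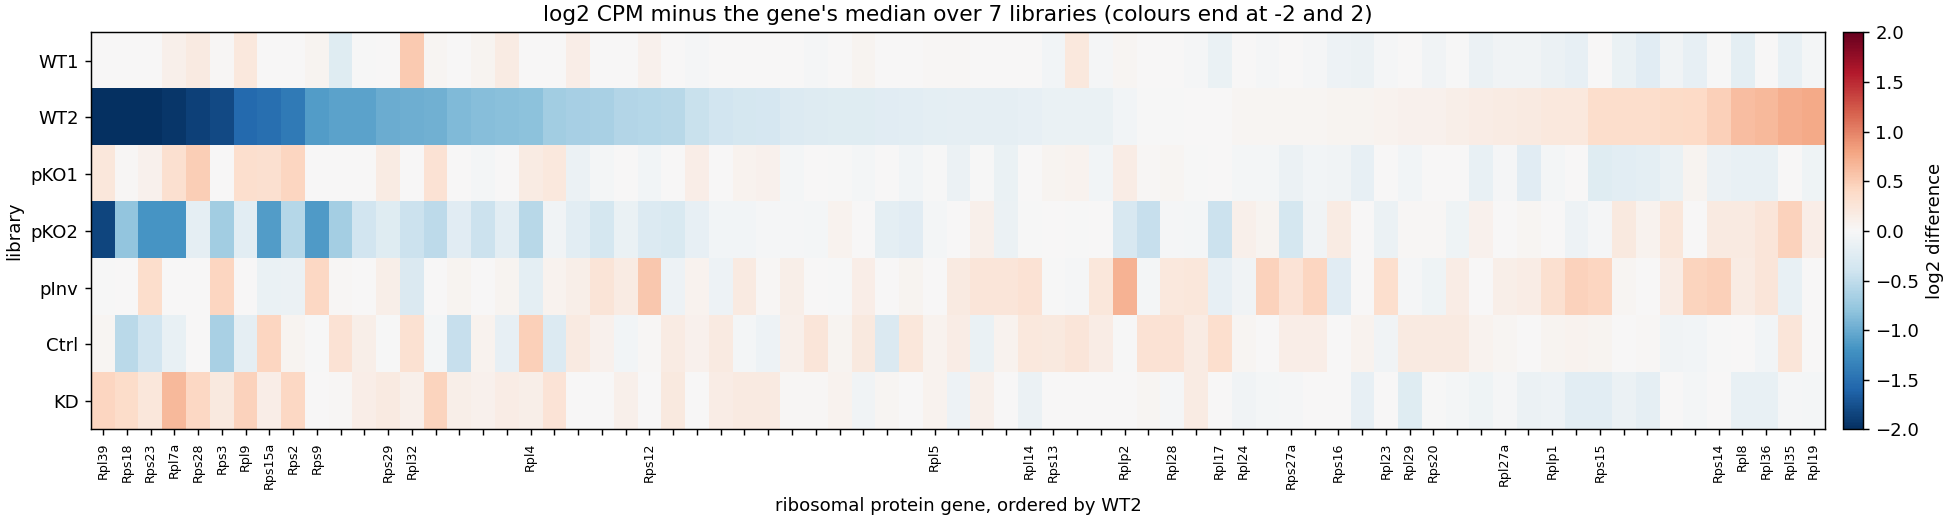
Each cell is the log2 CPM of 1 gene (columns, ordered by WT2) in 1 library (rows) minus that gene's median over the 7 libraries; blue is lower and red higher, with colours ending at -2 and 2 and names for the same genes. The row of WT2 runs from deep blue (Rpl39, Rps18, Rps23) to red (Rpl19, Rpl35), the row of pKO2 shows a paler blue over the same end, and the other 5 rows are pale.

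Counted against the median of the other 6 libraries, 14 of 73 members were at least 2-fold lower in WT2, where 9.56% of the 4664 genes were. In pKO2 there were 5 such members, where 2.19% of genes were, and in the other 5 libraries there were 0, where 0.257% (WT1), 0.236% (pKO1), 0.6% (pInv), 0.472% (Ctrl) and 0.772% (KD) of genes were. No member was 2-fold higher in WT2 (0 of 73, where 2.64% of genes were), nor in any other library. Of the 14 in WT2, 10 were among the 30 small-subunit genes (Rps2, Rps3, Rps9, Rps15a, Rps18, Rps21, Rps23, Rps24, Rps28 and Rps29) and 4 among the 43 large-subunit genes (Rpl7a, Rpl9, Rpl32 and Rpl39). WT2 was the lowest library for 40 members, where it was lowest for 29.1% of genes, and the highest for 10, where it was highest for 30.7%. The members furthest above in WT2 were Rpl19 (2982 CPM, 1.71 times the median of the others), Rpl35 (1784, 1.67 times), Rpl8 (3718, 1.61 times) and Rpl36 (3440, 1.60 times), so the same library held both the lowest and, for these 4, the highest values.

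The counts by role are read beside the 14 of all 73 members and the 9.56% of genes that were 2-fold low in WT2. All 3 proteins at the mRNA entry (Rps2, Rps3 and Rps9) were over 2-fold low in WT2, with a median log2 difference of -1.44, and the median was -0.71 in pKO2. Rps3 had 1396, 393, 1377, 850, 1852, 882 and 1572 CPM in the order used above. Rps9 had 386, 170, 370, 169, 491, 368 and 374 CPM in that order, and WT2 and pKO2 were alike. The 5 proteins at the mRNA exit had a median of -0.48 in WT2 with 1 of 5 over 2-fold low (Rps28), and 7 exit tunnel proteins -0.18 with 1 over 2-fold low (Rpl39). The P stalk (Rplp0, Rplp1 and Rplp2), which recruits and activates translation factors, had a median of -0.08 in WT2 and 0 of 3 over 2-fold low. Of 14 genes in which mutations are known in Diamond-Blackfan anaemia, an inherited failure of red cell formation, 3 were over 2-fold low in WT2 (Rps24, Rps28 and Rps29), with a median of -0.67, so the count was close to the members' own share.

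The deviations of WT2 and pKO2 ran in parallel. The log2 difference of WT2 from WT1 and that of pKO2 from pKO1 had a Pearson correlation of 0.867 and a Spearman correlation of 0.831 across the 73 members, and of 0.485 and 0.47 across the 4664 genes; the points of each pair share libraries, so these values are descriptions. Of the members, 39 were lower in both libraries numbered 2 (53.4%, where 31.2% of genes were), 19 of 73 were higher in both (where 37.2% of genes were), and 6 were at least 2-fold lower in both (8.22%, where 2.49% of genes were). The labels give the number in the title and no batch, day or litter behind it.

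**Figure D4:**
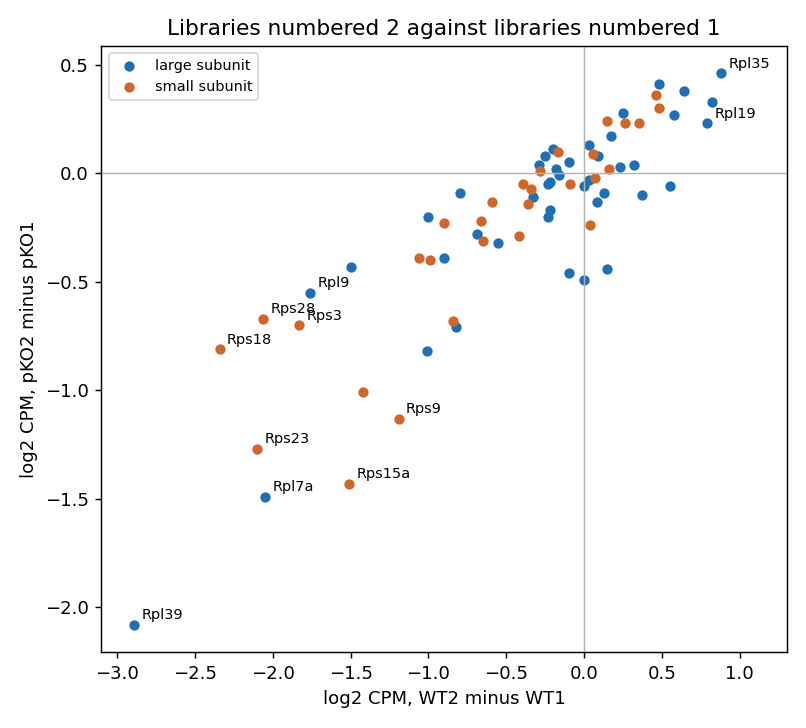
Each point is 1 ribosomal protein gene, with the log2 difference in CPM of WT2 from WT1 on the horizontal axis and of pKO2 from pKO1 on the vertical axis, coloured by subunit. The points run from Rpl39 at the lower left to Rpl35 at the upper right (Pearson 0.867 over 73 genes), and 39 of them lie below 0 on both axes.

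Several measures moved with WT2, and their part in these values was not tested. WT2 had the fewest expected counts (1898350, where the others had 2034596 to 2564478). The 7 primitive streak markers (Eomes, T, Mixl1, Lhx1, Mesp1, Foxa2 and Gsc) summed to 543 CPM in WT2 and 1168 to 2456 in the others, with 6 of the 7 at least 2-fold below the median of the others. Of 6 trophoblast markers, Tfap2c had 1.79 CPM in WT2 and 19.7 to 35.8 in the others and Gata3 0 and 1.01 to 5.23. Cdx2, Krt7 and Hand1 were at 2.30 CPM or less in every library, with Krt7 highest in WT2 (1.79), and Elf5 was at 0 in all, so the list's sum (3.58 CPM in WT2 and 22.7 to 41.8 in the others) was mostly Tfap2c. In pKO2, which shared the pattern, the streak markers summed to 2121 CPM and Tfap2c was at 25.3, within the range of the other libraries, and the total of 2400373 counts was second to that of WT1. The 7 pluripotency and epiblast markers summed to 2361 CPM in KD and 3168 to 3464 in the others, a sum that was mostly Pou5f1 and Dnmt3b. These markers went different ways in WT2. Pou5f1 was highest there (2178 CPM, where the others had 1081 to 1713), while Nanog (7.77), Dnmt3b (866) and Fgf5 (35.8) were at their lowest. Sox2 (101), Otx2 (256) and Utf1 (18.5) lay within the range of the others. The 8 feeder fibroblast markers summed to between 2.53 and 7.81 CPM. Of 32 translation factors, 8 were at least 2-fold lower in WT2, where 9.56% of genes were, and 2 in pKO2, where 2.19% were. The medians of these factors were -0.08 and -0.02 on the log2 scale. Chosen after their values were seen, the elongation factor Eef1a1 had 883 CPM in WT2, 1655 in pKO2 and 3436 to 6065 elsewhere, and the initiation factor Eif4a1 had 207, 333 and 734 to 947. The elongation factor Eef2 went the other way, with 3910 CPM in WT2 and 2218 to 3219 in the others. RSEM gives fractional counts where reads fit several genes, as they can for ribosomal proteins with their many pseudogenes: 19 members had whole counts in all 7 libraries, 37 had fractions in all 7 and 17 in some. Of the 14 members 2-fold low in WT2, 1, 7 and 6 fell in these classes.

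The first comparison, pKO against WT, addresses what loss of the Meteor promoter does. The quasi-likelihood test of edgeR called no member at an adjusted p under 0.05 (0 of 73, where 0% of 10265 genes were called, all at 1.0). At an unadjusted p under 0.05 there were also 0 members, where 0.507% of genes were higher and 0.526% lower at that level, and DESeq2 and limma called 0 members. Without WT1, with WT2 alone assumed to vary like the other libraries, 19 members were under that level (17 of them higher in pKO), where 13.2% of genes were, and 0 were called. The median log2 difference of the members was 0.04, where that of all genes was 0.00, and 43 of 73 were higher in pKO (58.9%, where 49.3% of genes were). Scaling by library totals alone gave 51 higher. Both pKO libraries lay above both WT libraries for 1 member (Rps13, where 12.0% of genes did) and below for 3 (Rps15, Rps27a and Rpsa, where 12.9% did).

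The largest positive differences in pKO were those of members low in WT2. Rps28 had 94.0 ± 81.3 CPM (SD, n = 2) in WT and 153 ± 49.4 (SD, n = 2) in pKO, a log2 difference of 0.69 with a standard error of 0.57. It was followed by Rps2 (0.55), Rpl9 (0.50), Rps18 (0.40) and Rps29 (0.39), and in all 5 pKO1 was above both WT libraries while pKO2 lay between them, so the groups overlapped. Rps28 was at 2.04 without WT1 and 0.04 without WT2. The largest negative differences were those of Rpl19 (-0.38), Rps15 (-0.31), Rpl36 (-0.30), Rps27a (-0.25) and Rpl8 (-0.24). Rps15, a protein of the small subunit's head, was at 1450 and 1844 CPM in the WT libraries and at 1220 and 1430 in those of pKO, so the groups did not overlap, at an unadjusted p of 0.282 and an adjusted p of 1.0 in edgeR's test. Small-subunit genes had a median of 0.13 with 22 of 30 higher, and large-subunit genes -0.02 with 21 of 43 higher. The sign of the members' median changed when either WT2 or pKO1 was left out. Without WT2 the members' median was -0.01, where that of all genes was 0.01, and 33 members were higher. Without pKO1 it was -0.03, where that of all genes was -0.04, and 32 members were higher. In that fit the members' median was therefore not below that of all genes. Grouped by the genotype field, the median was -0.11 and 15 were higher. With both libraries numbered 2 left out, a choice made after seeing the data, pKO1 and WT1 differed by a median of 0.00. Of the 73 members, 38 were higher in pKO1, where 48.1% of 4664 genes were. None was 2-fold apart, where 0.901% of genes were, and the members ran from -0.52 for Rpl32 to 0.43 for Rps2.

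The second comparison set pInv, the inverted promoter, against WT, with pInv a single library assumed to vary like the others. Most members were at a higher level in pInv, but none passed the test: edgeR's adjusted p was 1.0 for each, 0 of 73 were called (0% of genes) and 0 had an unadjusted p under 0.05, where 0.701% of genes were higher and 0.779% lower at that level, and DESeq2 and limma called 0. The count at an unadjusted p under 0.05 was 25 without WT1 (23 of them higher in pInv), where 12.6% of genes were, and 7 with no filter on low counts, where 2.63% were, and in both 0 members were called. The median log2 difference was 0.25, where that of all genes was -0.01, and 57 of 73 members were higher (78.1%, where 48.5% of genes were), or 69 when scaled by library totals alone. pInv lay above both WT libraries for 38 members, where it did for 29.0% of genes, and below both for 6 (Rpl17, Rpl24, Rpl29, Rpl38, Rps16 and Rps20), where it did for 28.0%.

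The largest positive differences were those of Rps23 (log2 1.05, standard error 0.77), Rps3 (1.05, 0.64), Rps9 (0.82, 0.57), Rpl39 (0.80, 1.04) and Rps12 (0.74, 0.37). Without WT2 these were 0.35, 0.40, 0.34, -0.01 and 0.44, and without WT1 they were 2.45, 2.23, 1.53, 2.87 and 1.10. Rps12 had 7687 and 4876 CPM in WT1 and WT2, 6978 and 5984 in pKO1 and pKO2, 10483 for pInv, 7366 for Ctrl and 7241 for KD, so pInv was above every other library. Rplp2, a partner of Rplp1 in the stalk, had the lowest unadjusted p of the members in edgeR's test, 0.0706, with a log2 difference of 0.70 and a standard error of 0.33. It had 2903, 2705, 3113, 2261, 4548, 2797 and 2821 CPM in the same order, and pInv again stood alone at 1.62 times the median of the other 6. The largest negative differences were those of Rpl35 (-0.50), Rpl19 (-0.41), Rpl32 (-0.26), Rps16 (-0.20) and Rpl36 (-0.11). Small-subunit genes had a median of 0.41 with 25 of 30 higher and large-subunit genes 0.15 with 32 of 43. All 14 Diamond-Blackfan anaemia genes were above 0, with a median of 0.33 and a range of 0.07 to 0.63. The size rested on WT2: without it the median was 0.11 with 48 members higher, and with pKO2 left out too it was 0.11 with 49 of 73 higher, where 52.9% of the 4664 genes were. Grouped by the genotype field it was -0.03 with 34 higher.

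The third comparison, pInv against pKO, asks how inversion of the promoter differs from its loss. Again 0 members were called by edgeR (0% of genes, adjusted p of 1.0), by DESeq2 or by limma, and 0 had an unadjusted p under 0.05, where 0.76% of genes were higher and 0.731% lower. That count was 4 with no filter (2.29% of genes), and leaving out 1 library it was 4 without WT2 (4.41%), 3 without WT1 (4.56%), 2 without pKO1 (1.53%) and 0 without pKO2 (0.723%). The median was 0.16, where that of all genes was 0.00, with 56 of 73 higher (76.7%, where 49.4% of genes were), or 64 by library totals. pInv lay above both pKO libraries for 37 members, where it did for 34.2% of genes, and below both for 7, where it did for 31.5%. The largest differences were those of Rps9 (0.87, standard error 0.57), Rps23 (0.77, 0.77), Rplp2 (0.76, 0.33), Rps3 (0.73, 0.65) and Rps12 (0.69, 0.37) above, and of Rpl35 (-0.40), Rps16 (-0.28), Rps28 (-0.20), Rps2 (-0.14) and Rps20 (-0.10) below. Without pKO1, Rps9 was at 1.51, Rps23 at 1.51 and Rps3 at 1.10, and without pKO2 at 0.40, 0.27 and 0.42. Rplp2, with an unadjusted p of 0.0527, was at 0.98 without pKO1 and 0.54 without pKO2. This comparison shares pInv with the last one, so they are not separate evidence. With the libraries numbered 2 left out, the median difference of pInv from pKO1 was 0.11 over the 73 members and 0.04 over 4664 genes. Of the members, 46 were higher in pInv, where 54.0% of genes were. The members ranged from -0.55 (Rps2) to 0.68 (Rps15).

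pInv was the highest of the 7 libraries for 23 members, where it was for 16.7% of genes, and the lowest for 2, where it was for 12.3%. Its 5 most abundant members, by the mean over libraries, made up 26.2% of its ribosomal protein counts, against 22.1% to 24.6% in the others. The feature of NCBI gene 100861531 was lowest in this library (12.9%), and with it removed before scaling the medians were 0.23 against WT and 0.14 against pKO.

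**Figure D5:**
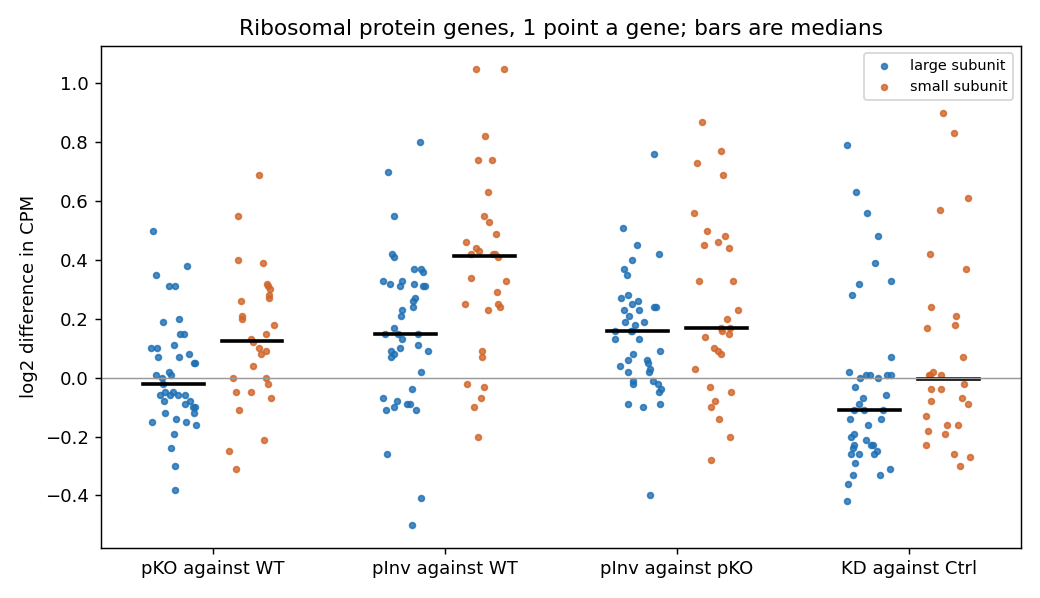
Each point is 1 ribosomal protein gene, with its log2 difference in CPM on the vertical axis, in 4 comparisons; bars are medians of the 43 large-subunit and 30 small-subunit genes. In pInv against WT the medians are 0.15 and 0.41, in pKO against WT they are -0.02 and 0.13, and in KD against Ctrl -0.11 and near 0; no point passed the test in the 3 comparisons that had one.

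The last comparison, KD against Ctrl, sets the knockdown beside its vector control, with 1 library each and so no replicate check and no p. None of the 73 members differed 2-fold, where 5.29% of 5083 genes did (4.03% higher and 1.26% lower). The median log2 ratio was -0.07, where that of all genes was -0.03, and 30 members were higher (41.1%, where 46.5% of genes were) and 43 lower. Rps18 went from 343 CPM in Ctrl to 642 in KD, a 1.87-fold difference with an exact binomial 95% interval of 1.71 to 2.05 that covers counting error only. Rps3 followed at 1.78 (1.68 to 1.89), then Rpl7a at 1.73 (1.46 to 2.06), Rpl9 at 1.54 (1.39 to 1.72) and Rps23 at 1.52 (1.45 to 1.60). For Rps18, Rps3, Rpl7a, Rpl9 and Rps23 alike, Ctrl was the lowest of the 5 libraries other than WT2 and pKO2. The lowest ratios were those of Rpl29 (0.745, 0.672 to 0.826), Rpl4 (0.778, 0.725 to 0.834), Rpl14 (0.795, 0.720 to 0.878), Rpl17 (0.797, 0.734 to 0.864) and Rpl28 (0.807, 0.739 to 0.882), all of the large subunit. Rpl4 had 880 CPM in Ctrl, the highest of the 7 libraries, and 684 in KD. Large-subunit genes had a median of -0.11 with 28 of 43 lower, and small-subunit genes -0.01 with 15 of 30 lower. Scaling by library totals turned the members' median to 0.05. Of 6 macrophage markers, which summed to 191 CPM in KD and 1.01 to 2.96 in the other 6 libraries, Lyz2 made up 174 CPM in KD and Csf1r 12.4. Tyrobp (2.76 CPM in KD and 0 to 0.422 in the others) and Cd68 (1.84, and 0.422 to 1.63) were also highest in KD, but at low levels. Fcer1g and C1qa were at 0 there. The part of these genes in the ratios was not tested.

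Other genes of translation were measured in the same fit. Of 74 genes of the mitochondrial ribosome, which makes the proteins encoded by mitochondrial DNA, 73 were tested and 0 were called in the 3 tested comparisons by edgeR, with 1 at an unadjusted p under 0.05 in pInv against WT (lower) and 1 in pInv against pKO (higher). Their medians were -0.11 in pKO against WT, -0.05 in pInv against WT and 0.07 in pInv against pKO, where the cytosolic genes had 0.04, 0.25 and 0.16. Of 32 translation factors, and of 40 of 42 genes of ribosome biogenesis that were tested, 0 were called and 0 reached an unadjusted p under 0.05 in any of the 3. The factors had medians of 0.04, 0.09 and 0.09, and the biogenesis genes -0.04, -0.12 and 0.01. In the order of the 7 libraries, Npm1, a nucleolar chaperone of ribosome assembly, had 2389, 4969, 2469, 2615, 3044, 2466 and 2191 CPM, so WT2 was the highest. Heatr1, which acts early in processing of ribosomal RNA, had 106, 52.0, 105, 75.2, 156, 84.4 and 97.0 CPM, with pInv highest.

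Paralogs and fusion genes outside the rule were tested for 10 of 12, and 0 were called in the 3 tested comparisons. Rpl22l1, a paralog of Rpl22, had 86.2 and 8.36 CPM in WT1 and WT2, 91.3 and 17.2 in pKO1 and pKO2, 67.1 for pInv, 30.8 for Ctrl and 122 for KD. Among the 8 of this list at 20 CPM or more it was the one past 2-fold in KD against Ctrl, at a ratio of 3.97. Below that level, Rpl10l and Rpl39l each had 5.06 CPM in Ctrl and 2.30 in KD, a ratio of 0.455 with a counting interval of 0.122 to 1.46. Rpl22l1 was 9.17-fold below the median of the others in WT2. Rpl22 itself had 700, 434, 810, 669, 733, 578 and 849 CPM, in which WT2 and Ctrl were lowest, and for the paralog the 3 lowest were WT2, pKO2 and Ctrl. Rack1, a scaffold protein on the small subunit, had 5665 CPM in WT2 and 3241 to 3967 in the others.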

How the data were processed

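Polyadenylated RNA of embryoid bodies was read from 3′ ends with the Lexogen QuantSeq kit, per the labels' protocols. Expected counts per gene were estimated with RSEM by the authors before they deposited 1 table for each of the 7 libraries, on build mm9, per the submitters' processing notes, where versions are not given. These counts carry no normalization and were rounded here before testing. TPM deposited by the authors (scaled to length and a fixed total) served in 1 alternative, and FPKM deposited by the authors were not used. No strand setting or handling of multi-mapping and duplicate reads was known, so reads of near-identical copies and overlapping genes may be split. Names came from a RefSeq table of GRCm38.p6, which named 23447 features as single genes, 375 as merged, 1142 as further copies and 26 not at all.

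All 7 libraries entered 1 quasi-likelihood fit (edgeR 4.0.16, R 4.3.3, filterByExpr by group, TMM, prior count 2, no covariate), with 10265 genes tested and Benjamini-Hochberg adjustment over all of them. The spread was estimated from the 2 groups with 2 libraries (2 residual degrees of freedom), with a prior of 5.86 and a common coefficient of variation of 0.294. KD and Ctrl were compared by CPM ratio, at 2-fold and 20 CPM in either. Floors of 3 counts correspond to 1.12 to 1.79 CPM. Alternatives were RLE scaling, library totals, removal of the most abundant feature, no filter, DESeq2 1.42.0, limma 3.58.1 on log2(TPM + 1), genotype-field groups, fewer libraries and a replicate block. The steps were tested on simulated counts. Genes named are the 5 largest differences each way per comparison, the 5 highest, lowest, most and least variable members, small role lists whole, and up to 4 of each longer list. The counts of genes by library deviation and the libraries left out together were chosen after seeing the data. The members and lists were chosen with earlier results of these data known.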

Additional observations from a re-analysis of the deposited data

Results flagged for a closer look

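The 4 ribosomal protein genes that share a feature with a second gene were in the fit but are not among the 73 members, so no count of members above holds them. Over the 7 libraries, the merged feature of Rpl26 and Gm15772 held 16078 expected counts, that of Rps27 and Rps27rt 8141, that of Rpl30 and Gm12191 13147 and that of Rpl34 and Rpl34-ps1 11643, each far above the 3 counts that a count of 0 allows. Rpl34 had 871 and 129 CPM in WT1 and WT2, 979 and 400 in pKO1 and pKO2, 887 for pInv, 715 for Ctrl and 1168 for KD, so WT2 was 6.81-fold and pKO2 2.20-fold below the median of the others. Rpl26 had 1889 CPM in WT2 and 882 to 1005 in the others. Rpl30 ran from 517 CPM in WT2 to 1129 in Ctrl and Rps27 from 420 in WT2 to 586 in WT1. None of the 4 was called in the 3 tested comparisons (edgeR's adjusted p was 1.0 for each). Which gene of a merged pair the reads came from cannot be told apart here.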

How the results depend on the processing

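No member was called in any of the 3 tested comparisons under any alternative run. Grouping by the genotype field moved the members' median to -0.11 in pKO against WT and -0.03 in pInv against WT. It also turned the sign of Rps28 (-0.41), Rps2 (-0.21), Rpl9 (-0.31), Rps18 (-0.39), Rps29 (-0.36), Rpl19 (0.34), Rpl36 (0.12), Rps27a (0.03) and Rpl8 (0.09) in the first, of Rps12 (-0.24) and Rpl32 (0.36) in the second, and of Rps28 (0.98) and Rps2 (0.97) in pInv against pKO. Library totals alone gave a median of 0.38 in pInv against WT with Rpl36 at 0.04, and in KD against Ctrl a median of 0.05 with 1 member past 2-fold. With the libraries numbered 2 of WT and pKO left out, pInv against WT had a median of 0.11. Leaving out 1 library at a time, the medians ran from -0.03 to 0.16 in pKO against WT, 0.11 to 0.36 in pInv against WT and 0.11 to 0.21 in pInv against pKO. The median of all genes in pKO against WT ran from -0.04 to 0.03 over the same fits. Signs turned in that series for Rpl9 (-0.10 to 1.63), Rps18 (-0.31 to 2.0), Rps29 (0.00 to 0.97), Rpl19 (-0.73 to 0.08), Rpl36 (-0.58 to 0.08), Rpl8 (-0.59 to 0.25) and Rps2 (-0.03 to 1.43) in pKO against WT, Rpl32 (-0.82 to 0.68), Rpl39 (-0.01 to 2.87), Rpl35 (-0.87 to 0.00), Rpl19 (-0.75 to 0.04) and Rpl36 (-0.40 to 0.25) in pInv against WT, and Rps28 (-0.50 to 0.15) and Rps2 (-0.56 to 0.43) in pInv against pKO. The cause of these changes was not tested. WT and pKO share the numbers 1 and 2, with no label behind them; the difference of the libraries numbered 2 from those numbered 1 correlated at 0.485 between the 2 groups across the 4664 genes. A fit of the 4 libraries with the replicate block gave a median of 0.06 in pKO against WT, 44 members higher, 3 at an unadjusted p under 0.05 and 0 called, where the same 4 libraries without the block gave 0.05, 43, 0 and 0. pInv carries no number in its label, so no block could be fitted for it. The members' share of counts was 14.7%, 13.1%, 14.5%, 14.0%, 16.3%, 15.2% and 15.4% (WT1, WT2, pKO1, pKO2, pInv, Ctrl, KD) with the most abundant feature left out, and 22.4%, 19.5%, 21.5%, 21.5%, 24.4%, 22.4% and 23.0% of TPM. RLE scaling, no filter, DESeq2, limma on TPM and removal of the most abundant feature turned no named member, with medians of 0.05 to 0.11, 0.23 to 0.26 and 0.10 to 0.15 in the 3 tested comparisons. Over all genes, where 0 were called, no filter gave 9, 6 and 8 called, the genotype field 7 in pInv against WT, and leaving out 1 library 0 to 7. With these spreads a 2-fold change in 1 gene could go uncalled.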
